A study of Homo sapiens with 18 samples.

Results

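Ferrostatin-1 (Fer-1) given before the ferroptosis inducer RSL3 was compared with no treatment in MM1R, a human multiple myeloma cell line that resists glucocorticoids and is the counterpart of the glucocorticoid-sensitive line MM1S. The comparison used 6 of the 18 RNA-seq libraries of the study, 3 MM1R libraries labelled Fer-1 + RSL3 and 3 labelled untreated, and 1 library of each treatment came from cell passages 4, 6 and 7 (replicates 1, 2 and 3). Treated cells received 5 µM RSL3 for 3 h after 2 h with 2 µM Fer-1. The 3 MM1R libraries with RSL3 alone (5 µM, 3 h) came from the same passages and are set beside the comparison, as are the 3 Fer-1 + RSL3 and 3 untreated MM1S libraries (passages 16, 22 and 23). A group with Fer-1 alone or with vehicle was not analysed here, so that what Fer-1 does by itself and what RSL3 does in its presence cannot be told apart. All replicates were passages of an established line, and the spread among them is that of cultures of that line. Each MM1R library held between 17817681 and 19025112 counted reads.

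RSL3 inactivates GPX4, the selenoenzyme that reduces lipid hydroperoxides in membranes, and lipid peroxides then build up until the cell dies by ferroptosis. Fer-1 traps the lipid radicals that carry this chain reaction, and it stops the peroxidation but leaves the covalent drug in the cell. RSL3 is an electrophile that reacts with selenocysteine and cysteine residues. Electrophiles are known to free NRF2 from KEAP1 and to switch on antioxidant genes, unfolded proteins release HSF1, which switches on chaperone genes, and the kinases that phosphorylate eIF2α raise ATF4, which switches on genes of amino acid supply. The comparison addresses which transcripts differ from untreated cells when RSL3 acts in the presence of an inhibitor of lipid peroxidation.

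A library went against its label. Marker genes of each line were chosen on the untreated and RSL3 libraries only, as genes with at least 8-fold higher mean level in that line and no overlap, which gave 10 MM1S and 19 MM1R markers. In the MM1R library labelled Fer-1 + RSL3, replicate 2 (passage 6), the median MM1S marker stood at 46.5% of its MM1S level (interquartile range 42.8 to 58%), while the other 8 MM1R libraries ranged from -0.955 to 3.55%. The median MM1R marker in the same library stood at 42.4% of its MM1R level. NR3C1, the glucocorticoid receptor gene that separates the lines, was measured at 16.9, 50.2 and 15.3 CPM (counts scaled to library size) in Fer-1 + RSL3 replicates 1, 2 and 3, and at 14.4, 13.8 and 14.9 CPM in the untreated libraries. Both line signals were thus present in the passage 6 library at similar shares, and mixed cells cannot be told apart from mixed RNA. The tests for differences between groups below were therefore repeated without passage 6. The separation of libraries, the promoter counts, the medians set beside RSL3 alone and the overlap with MM1S calls used all passages only.

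**Figure D1:**
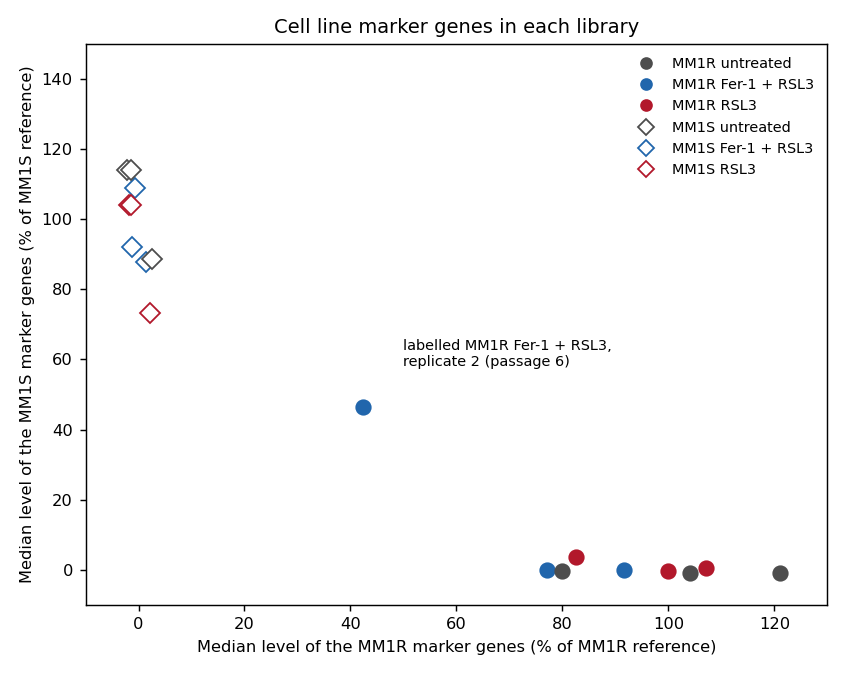
Each point is a library, placed by the median level of the MM1R marker genes (horizontal axis, % of the mean MM1R level) and of the MM1S marker genes (vertical axis, % of the mean MM1S level). The MM1R library labelled Fer-1 + RSL3, replicate 2, lies between the lines at 42.4% and 46.5%, and the other libraries lie with the line on their label.

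The promoters of some genes that carry the main results are shown with the motif of the factor named for each group (NRF2, HSF1, ATF4 and MTF1). Only promoters that held the motif are printed, and whether these factors acted was not tested. The sequences are the 250 bases before the first annotated start of each gene in RefSeq (GRCh38.p14), 5′ to 3′ on the gene's strand, and matches on either strand are in capitals. For heat shock genes the capitals mark the inverted pair GAANNTTC or TTCNNGAA of the heat shock element, and neighbouring matches can overlap. HSPA6 (chr1:161524290-161524539, plus strand) held 3 matches, HSPA8 (chr11:123062137-123062386, minus strand) held 4 and CHORDC1 (chr11:90223050-90223299, minus strand) held 6.
HSPA6: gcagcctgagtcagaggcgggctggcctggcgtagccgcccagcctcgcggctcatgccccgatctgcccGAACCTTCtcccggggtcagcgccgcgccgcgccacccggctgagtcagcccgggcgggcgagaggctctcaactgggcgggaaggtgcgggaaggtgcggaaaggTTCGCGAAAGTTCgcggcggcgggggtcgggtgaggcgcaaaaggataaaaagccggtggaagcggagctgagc
HSPA8: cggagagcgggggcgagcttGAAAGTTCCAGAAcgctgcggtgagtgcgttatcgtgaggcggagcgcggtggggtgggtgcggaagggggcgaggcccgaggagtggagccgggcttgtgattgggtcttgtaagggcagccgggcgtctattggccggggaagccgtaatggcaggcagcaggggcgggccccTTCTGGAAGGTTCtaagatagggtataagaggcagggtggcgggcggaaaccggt
CHORDC1: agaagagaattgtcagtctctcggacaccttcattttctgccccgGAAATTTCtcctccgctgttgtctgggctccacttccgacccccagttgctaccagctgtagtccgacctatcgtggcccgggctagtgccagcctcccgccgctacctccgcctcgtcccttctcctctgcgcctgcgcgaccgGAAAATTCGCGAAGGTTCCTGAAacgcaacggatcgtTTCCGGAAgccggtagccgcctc

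In GCLM (chr1:93909431-93909680, minus strand) the capitals mark the only match to TGACNNNGC, the core of the antioxidant response element bound by NRF2 with small MAF proteins, whose 5′ letters can overlap an AP-1 site (TGANTCA).
GCLM: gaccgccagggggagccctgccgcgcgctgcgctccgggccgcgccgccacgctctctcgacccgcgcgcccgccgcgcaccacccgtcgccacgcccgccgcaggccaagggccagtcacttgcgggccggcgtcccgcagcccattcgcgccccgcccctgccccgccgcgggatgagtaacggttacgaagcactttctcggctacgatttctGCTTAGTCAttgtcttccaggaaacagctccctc

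In CHAC1 (chr15:40953221-40953470, plus strand) and ATF3 (chr1:212565157-212565406, plus strand) the capitals mark the core TGATGNAA of the composite element bound by ATF4 with C/EBP proteins such as CHOP, found once in each.
CHAC1: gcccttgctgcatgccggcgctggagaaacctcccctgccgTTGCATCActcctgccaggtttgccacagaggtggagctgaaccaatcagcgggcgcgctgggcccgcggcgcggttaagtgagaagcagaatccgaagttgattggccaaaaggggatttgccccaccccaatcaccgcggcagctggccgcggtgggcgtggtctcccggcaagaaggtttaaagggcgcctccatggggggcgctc
ATF3: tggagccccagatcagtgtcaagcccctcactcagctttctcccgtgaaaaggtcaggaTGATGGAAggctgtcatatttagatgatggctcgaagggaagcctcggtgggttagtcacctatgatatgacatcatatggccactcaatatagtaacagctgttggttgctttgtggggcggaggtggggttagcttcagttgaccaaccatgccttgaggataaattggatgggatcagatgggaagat

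In the metallothionein genes MT1H (chr16:56669564-56669813, plus strand) and MT2A (chr16:56608334-56608583, plus strand) the capitals mark the core TGCACNC or TGCGCNC of the metal response element bound by MTF1, with 8 and 7 matches.
MT1H: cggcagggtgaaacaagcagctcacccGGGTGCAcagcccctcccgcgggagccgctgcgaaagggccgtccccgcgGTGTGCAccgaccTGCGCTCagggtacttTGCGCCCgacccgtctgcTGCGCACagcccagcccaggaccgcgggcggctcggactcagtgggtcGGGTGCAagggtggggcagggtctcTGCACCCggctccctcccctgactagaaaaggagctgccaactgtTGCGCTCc
MT2A: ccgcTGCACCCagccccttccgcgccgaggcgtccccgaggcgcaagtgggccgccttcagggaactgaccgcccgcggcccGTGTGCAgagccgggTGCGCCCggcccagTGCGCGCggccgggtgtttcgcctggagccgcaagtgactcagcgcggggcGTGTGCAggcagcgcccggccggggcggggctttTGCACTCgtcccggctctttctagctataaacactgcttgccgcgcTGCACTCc

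Windows of the same length before all 27305 RefSeq gene starts in the table held the heat shock pair in 11.7%, the antioxidant core in 11%, the metal response core in 24.7% and the ATF4 composite core in 3.19% of cases. Among the 10502 tested genes with a promoter entry these shares were 8.9%, 12.5%, 33.0% and 1.51%, in the same order. The heat shock pair was present in 4 of the 10 called heat shock genes that had a promoter entry and in 4 of 13 that were tested and not called. The ATF4 composite core was present in 3 of 13 called ATF4 targets with an entry and in 0 of 6 not called. Among NRF2 targets the antioxidant core was present in 1 of 4 called and 3 of 18 other genes, and the metal response core was present in 4 of 6 metallothionein and zinc genes. These matches describe the letters of the window only.

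Among the transcripts that were higher with Fer-1 + RSL3 were those of chaperones, amino acid supply and antioxidant enzymes, and TFRC, the transferrin receptor, was among those lower. A gene was called when its FDR was under 0.05 and its log2 fold change (logFC) was over 1 in size, from a quasi-likelihood fit paired by passage. Of 14281 genes tested, 412 (2.88%) were called higher and 109 (0.763%) lower in Fer-1 + RSL3 than in untreated MM1R cells. The FDR alone was under 0.05 for 1638 higher and 1535 lower genes. In bulk libraries fewer cells of a type and less RNA per cell cannot be told apart. Without passage 6, 271 genes (1.86%) were called higher and 112 (0.768%) lower. Of the 521 genes called with all passages, 286 (54.9%) were also called without passage 6, 513 kept the sign of their logFC and 439 kept a logFC over 1 in size. Of the 202 genes at least 2-fold higher in untreated MM1S than MM1R cells, 54 (26.7%) were called higher with all passages and 12 (5.94%) without passage 6, against 355 (2.57%) and 249 (1.80%) of the 13840 genes that differed less than 2-fold. Whether single calls outside these genes came from the MM1S signal was not tested.

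NRF2 targets rose in part. Of 29 tested, 7 were called higher (24.1%, against 2.88% of all genes) and 0 lower (0.763% of all genes), with a median logFC of 0.37 against 0.01 for all genes, and the count without passage 6 was also 7. HMOX1, the heme oxygenase that breaks heme down to biliverdin, iron and carbon monoxide, was measured at 13.5, 17.8 and 25.4 CPM in the untreated libraries and at 748, 685 and 1460 CPM in the Fer-1 + RSL3 libraries of passages 4, 6 and 7. Every treated library stood far above every untreated library, and the logFC was 5.62 ± 0.59 (SE, n = 3 pairs; FDR = 0.000106). GCLM, the modifier subunit of the enzyme that starts glutathione synthesis, lay at 21.7, 20.7 and 22.8 CPM untreated and at 48.1, 60.9 and 65.7 CPM treated (logFC 1.41 ± 0.10, FDR = 1.66e-05). OSGIN1, an oxidative stress-induced growth inhibitor, went from 1.30, 1.42 and 1.16 CPM to 11.7, 7.70 and 9.89 CPM (logFC 2.90 ± 0.29, FDR = 9.91e-05). The groups did not overlap for any of these 3 genes, and GCLM had the narrowest spread. Of all 14281 tested genes, 2351 had every Fer-1 + RSL3 library above every untreated one and 2012 had every one below. Among called genes, 365 of the 412 higher and 104 of the 109 lower were apart, so that separation adds little to a call.

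SRXN1, the sulfiredoxin that repairs peroxiredoxins, had a logFC of 1.33 ± 0.11 (FDR = 3.87e-05) and NQO1, a quinone reductase, of 1.17 ± 0.19 (FDR = 0.00122). TXNRD1, a thioredoxin reductase, passed the FDR at 3.87e-05 with a logFC of 1.00 that rounds up to the limit and was not called, as did GCLC, the catalytic partner of GCLM, with a logFC of 0.89. The remaining called members were SLC7A11, shared with the ATF4 list below, and CBR3, a carbonyl reductase. Against these, 15 of the 29 targets did not pass the FDR and 3 were below untreated at FDR under 0.05, among them TRIM16 with a logFC of -0.83. NQO1 lost its call without the passage 4 libraries (replicate 1) and without the passage 6 Fer-1 + RSL3 library.

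Targets of ATF4 and the integrated stress response formed the list with the highest share of calls. Of 31 tested, 15 were called higher and 0 lower (48.4% against the background of 2.88%), 29 were higher at FDR under 0.05 and the median logFC was 0.94. Without passage 6, 13 were called. CHAC1, which degrades glutathione, rose from 8.94, 12.8 and 8.86 CPM to 197, 135 and 262 CPM (logFC 4.21 ± 0.51, FDR = 0.00026). SLC7A11, the cystine-importing subunit of system xc-, rose from 9.14, 11.4 and 6.20 CPM to 73.0, 73.7 and 91.7 CPM (logFC 3.14 ± 0.38, FDR = 0.00026). Its partner chain SLC3A2 rose from 118, 131 and 144 CPM to 476, 397 and 489 CPM (logFC 1.79 ± 0.28, FDR = 0.00106). For each of these transporter and glutathione genes all treated libraries were above all untreated libraries.

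The transcription factor DDIT3 (CHOP) rose from 10.2, 7.52 and 7.24 CPM to 60.5, 44.1 and 69.5 CPM (logFC 2.79 ± 0.36, FDR = 0.000364). Among serine and one-carbon enzymes on the list, PSAT1, ALDH1L2 and MTHFD2 were called, and PHGDH and SHMT2 stayed under the fold limit (logFC 0.71 and 0.31). PSAT1, the phosphoserine aminotransferase, stood at 89.4, 110 and 104 CPM untreated and at 310, 338 and 331 CPM treated (logFC 1.69 ± 0.20, FDR = 0.000214), and ALDH1L2, a mitochondrial folate dehydrogenase, had a logFC of 1.57 ± 0.18 (FDR = 0.000198). DDIT4, an mTORC1 inhibitor, had a logFC of 2.61, and the arginine transporter SLC7A1 of 1.05. ATF4 itself, which is controlled mainly in translation, had a logFC of 0.81 (FDR = 0.00713), and TRIB3, its pseudokinase target, of 0.85 ± 0.11. The aminoacyl-tRNA synthetases on the list stayed under the fold limit, with GARS highest at 0.94. ASNS, asparagine synthetase, was counted at a level low enough that its counts are doubtful, since the counting method is not known (the same holds for the NRF2 target SQSTM1, with a mean of 0.0914 CPM untreated). It lay at 1.04 to 1.77 CPM untreated and 2.55 to 4.45 CPM treated, and its call (logFC 1.30 ± 0.40, FDR = 0.032) was lost without passage 6 (FDR = 0.0664). PPP1R15A and SLC38A2 also lost their calls there, and GARS gained one.

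Of 20 genes of the unfolded protein response of the endoplasmic reticulum, 0 were called in either direction, against 3.65% of all genes. In a list of 20 genes 0 calls are near that share. At FDR under 0.05 alone 3 were higher, against 1638 of all 14281 genes, and the median logFC was 0.15. HSPA5, the chaperone BiP of the endoplasmic reticulum, had a logFC of 0.29 (FDR = 0.059).

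Several chaperone genes of the heat shock response rose. Of 25 heat shock proteins and co-chaperones tested, 11 were called higher (44%, against 2.88% of all genes) and 0 lower, with a median logFC of 0.90, and 8 were called without passage 6. HSPA6, an HSP70 that is nearly silent in unstressed cells, was measured at 1.09, 1.80 and 1.33 CPM untreated and at 301, 321 and 550 CPM with Fer-1 + RSL3 (logFC 8.22 ± 1.17, FDR = 0.000607). DNAJB1, the HSP40 that works with HSP70, rose from 142, 179 and 164 CPM to 1550, 2210 and 2610 CPM (logFC 3.65 ± 0.58, FDR = 0.00115). HSPA8, the constitutive HSP70, rose from 2340, 3070 and 3180 CPM to 6010, 8890 and 9180 CPM (logFC 1.48 ± 0.22, FDR = 0.000729). The treated and untreated libraries were apart for all 3 genes.

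BAG3, a co-chaperone of selective autophagy, had a logFC of 2.96 ± 0.53 (FDR = 0.00212), the cytosolic HSP90 gene HSP90AA1 of 2.48 and HSPH1, an HSP70 exchange factor, of 2.19. CHORDC1, whose promoter held 6 heat shock pairs, rose from 0.779, 0.654 and 1.10 CPM to 2.17, 3.23 and 3.44 CPM (logFC 1.79 ± 0.26, FDR = 0.000644). The major inducible HSP70 genes HSPA1A and HSPA1B are near-identical and each appeared in 5 numbered rows, so that reads cannot be assigned between them. Summed over its rows, HSPA1B stood at 4.57, 5.99 and 4.98 CPM untreated and at 158, 204 and 212 CPM treated, and its 3 tested rows were called higher. HSPB1, a small heat shock protein, had a logFC of 0.85 ± 0.64 (FDR = 0.353). SERPINH1, a collagen chaperone of the endoplasmic reticulum, had a logFC of -0.01 ± 0.23 (FDR = 0.978). DNAJA1, DNAJB2 and DNAJB4 were called only when passage 6 was included.

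**Figure D2:**
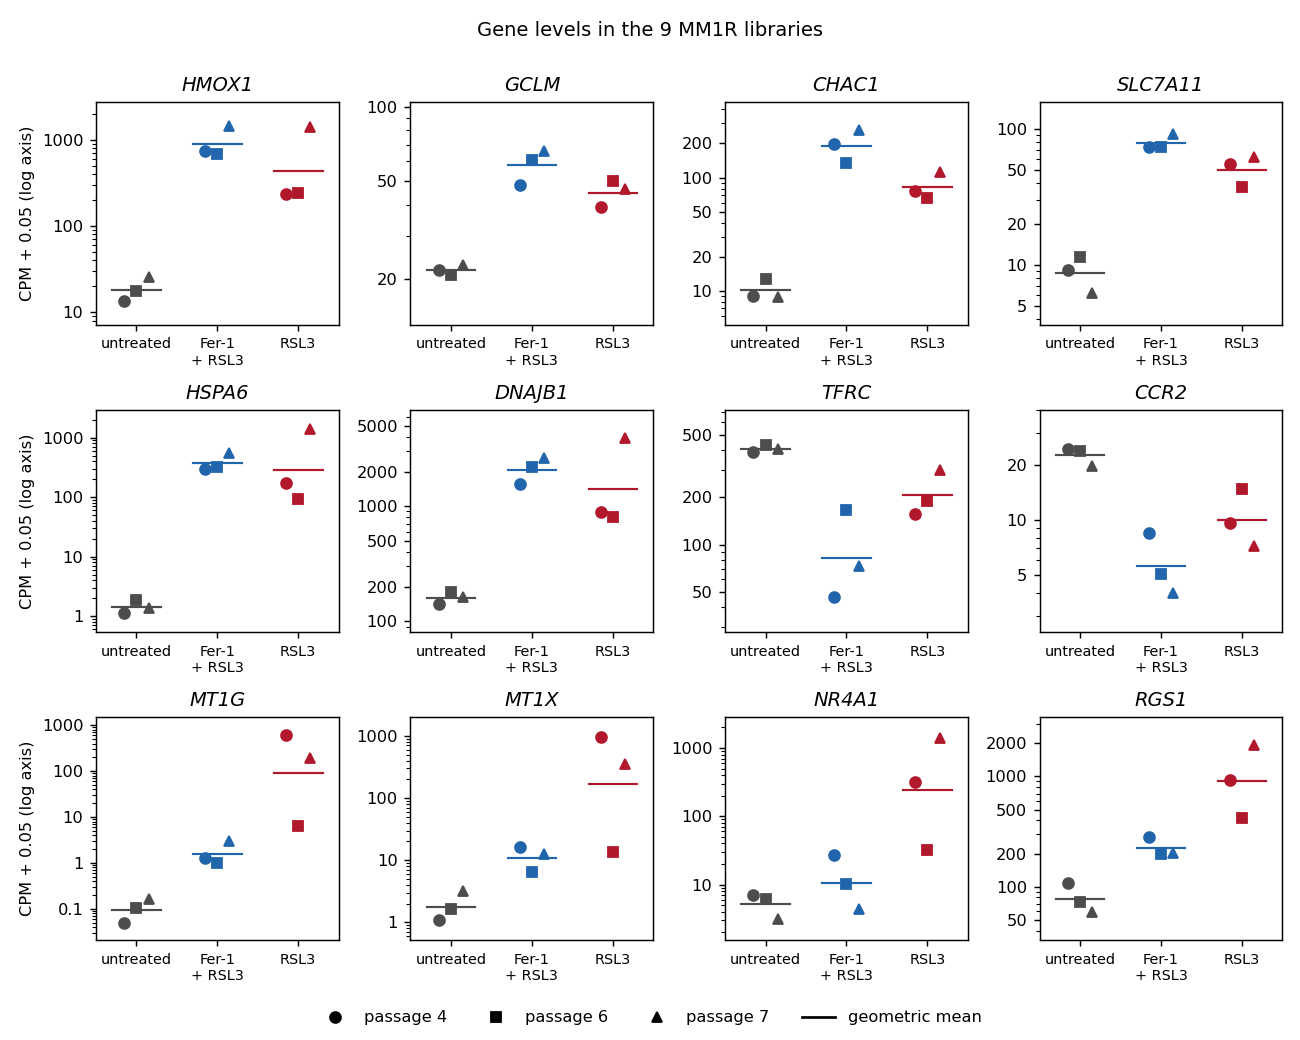
Level of 12 genes in the 9 MM1R libraries, in CPM + 0.05 on log axes that differ between panels, with 1 symbol per passage and a line at the geometric mean of each treatment. HMOX1, GCLM, CHAC1, SLC7A11, HSPA6 and DNAJB1 lie above untreated in every Fer-1 + RSL3 library, TFRC and CCR2 lie below, and MT1G, MT1X, NR4A1 and RGS1 lie below the RSL3 library of the same passage.

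The same genes were then set beside RSL3 alone. RSL3 alone gave 337 genes called higher (2.36%) and 73 lower (0.511%) against the same untreated libraries. The 412 genes called higher with Fer-1 + RSL3 had a median logFC of 1.52, and their median in RSL3 alone was 1.16, with 192 of them called higher there. The 109 genes called lower had medians of -1.2 and -0.85, with 22 called lower in RSL3 alone. Both comparisons share the untreated libraries. The direct test of Fer-1 + RSL3 against RSL3 called 3 genes higher (0.021%) and 9 lower (0.063%), and 1937 genes had an unadjusted p under 0.05. For HMOX1 the difference was 1.00 (95% CI -0.05 to 2.06, FDR = 0.388), for CHAC1 1.22 (0.27 to 2.17, FDR = 0.265) and for HSPA6 0.29 (-1.51 to 2.09, FDR = 0.904), so that equal levels were not shown for any of them. DNAJB1 had a difference of 0.45 (-0.71 to 1.62, FDR = 0.737).

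**Figure D3:**
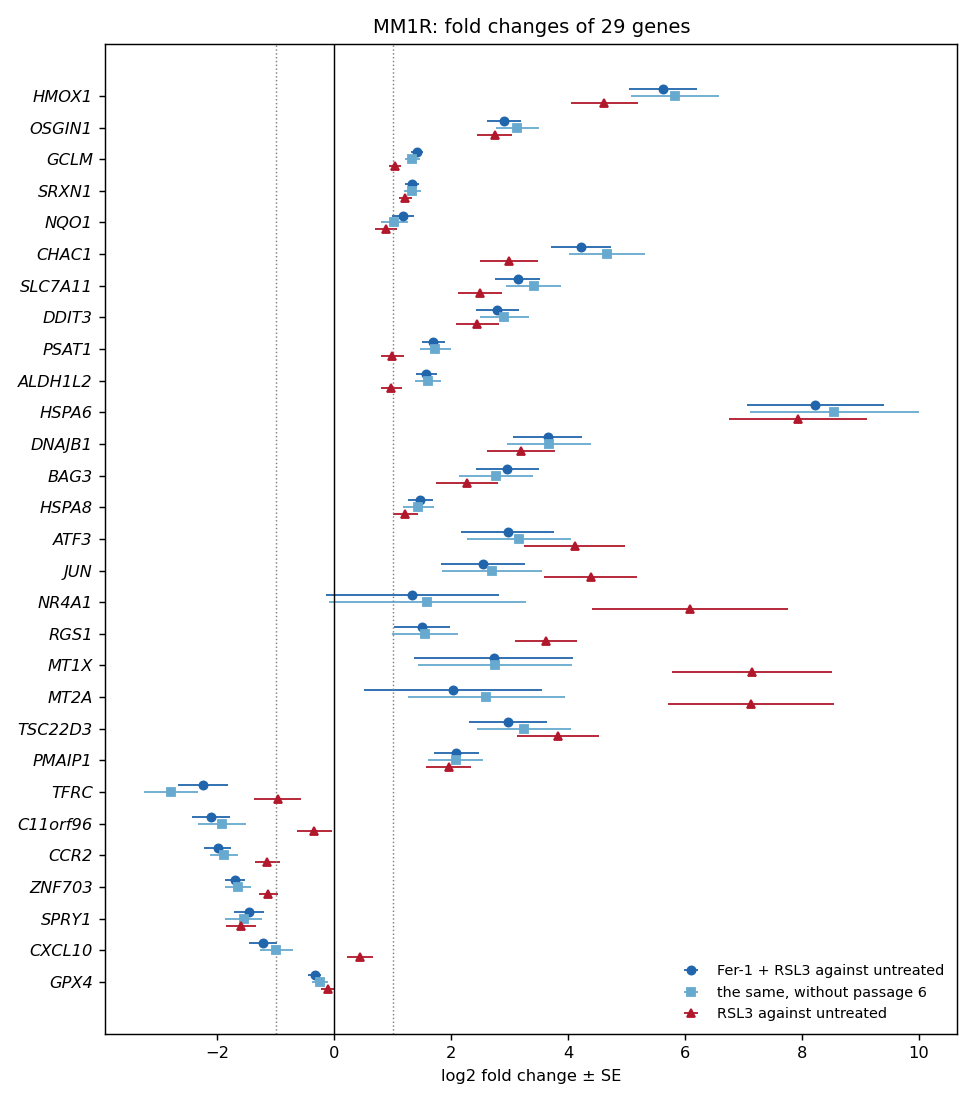
Fitted logFC with SE of 29 named genes in MM1R for Fer-1 + RSL3 against untreated (circles), the same without passage 6 (squares) and RSL3 against untreated (triangles), with dotted lines at the fold limit. HMOX1, CHAC1, HSPA6 and TFRC keep their side of the limit without passage 6, while MT1X, MT2A and NR4A1 are near 7 or 6 with RSL3 and between 1.34 and 2.73 with Fer-1 + RSL3.

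Metallothioneins, small cysteine-rich proteins that bind zinc and copper, were lower in Fer-1 + RSL3 than in RSL3. Against untreated cells 0 of the 9 metallothionein and zinc genes tested were called with Fer-1 + RSL3 (2.88% of all genes higher, 0.763% lower). With RSL3 alone 6 were called higher and 1 lower (2.36% and 0.511% of all genes). For a list of 9 genes 0 calls are near the background. The median logFC of the list with Fer-1 + RSL3 was 1.85, and that of MT1G was 5.06 ± 1.96 (FDR = 0.0797). A return to untreated levels was therefore not shown. Without passage 6, the zinc importer SLC39A10 was called lower with Fer-1 + RSL3 (logFC -0.82 with all passages). MT1G was measured at 0, 0.0545 and 0.116 CPM untreated, at 625, 6.28 and 195 CPM with RSL3 and at 1.21, 0.936 and 2.95 CPM with Fer-1 + RSL3 in passages 4, 6 and 7. In every passage Fer-1 + RSL3 was below RSL3, and the RSL3 library of passage 6 was the lowest of its group. The difference between the treatments was -6.81 (95% CI -8.66 to -4.96, FDR = 0.0102). MT1H followed the same order, with 45.6, 0.217 and 12.5 CPM in RSL3 and 0, 0.052 and 0.164 CPM in Fer-1 + RSL3 (difference -7.88, FDR = 0.00887). MT1E and MT1F were also called lower (FDR = 0.00833 and 0.0181). MT1E had 8.28, 0 and 2.11 CPM in RSL3 and 0.0506, 0 and 0 CPM in Fer-1 + RSL3, so that passage 6 showed no difference. MT1F had 30.2, 0.217 and 8.37 CPM in RSL3 and 0.0506, 0.104 and 0.109 CPM in Fer-1 + RSL3. Without passage 6 these 4 metallothioneins were the only genes called in this comparison (0.0274% of those tested, FDR = 0.00728 to 0.0476, with 1127 genes at an unadjusted p under 0.05). In the fit with no replicate block, 0 genes were called between Fer-1 + RSL3 and RSL3 in edgeR (881 at an unadjusted p under 0.05), so that these calls rest on the pairing by passage.

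MT1X and MT2A, the most abundant members after RSL3, did not pass the FDR for that difference. MT1X lay at 1.04, 1.58 and 3.19 CPM untreated, 16.3, 6.35 and 12.6 CPM with Fer-1 + RSL3, and 948, 13.4 and 354 CPM with RSL3 (difference -4.42, 95% CI -6.95 to -1.88, FDR = 0.156). Its Fer-1 + RSL3 libraries were above the untreated ones but the contrast was not past the FDR (logFC 2.73 ± 1.36, FDR = 0.166). SLC30A1, the zinc exporter induced by MTF1, had 325, 289 and 220 CPM untreated, 303, 291 and 293 CPM with Fer-1 + RSL3 and 1040, 321 and 802 CPM with RSL3 (difference -1.19, FDR = 0.255). The RSL3 library of passage 6 was the lowest of its group for MT1X, MT2A and SLC30A1.

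A further 5 genes were lower in Fer-1 + RSL3 than in RSL3. CXCL10, an interferon-induced chemokine, was measured at 13.6, 15.4 and 14.5 CPM untreated, 20.3, 16.3 and 23.2 CPM with RSL3 and 8.34, 4.73 and 5.85 CPM with Fer-1 + RSL3. Its Fer-1 + RSL3 libraries were below both other groups, with a logFC of -1.23 ± 0.24 against untreated (FDR = 0.0034) and -1.66 against RSL3 (FDR = 0.0175). BCL3, an NF-κB cofactor (-1.36, FDR = 0.0326), HES1, a Notch target (-1.52, FDR = 0.0374), SPSB1 (-1.02, FDR = 0.0394) and THEMIS2 (-1.92, FDR = 0.0468) made up the rest. None of the 5 was called without passage 6. Untreated means of SPSB1, THEMIS2 and CXCL10 were 3.29, 1.05 and 7.05 CPM in MM1S and 14.0, 4.21 and 14.5 CPM in MM1R. HES1 had 9.61 and 8.77 CPM. For each of these genes the mixed library was the lowest with Fer-1 + RSL3, and the part of the MM1S signal was not tested. The 3 genes called higher than in RSL3 were SPIN3, ZNF175 and MGST1. ZNF175 had 0, 2.76 and 0 CPM and MGST1 0, 10.6 and 0 CPM in Fer-1 + RSL3 replicates 1, 2 and 3, and both were measured in untreated MM1S cells (means 4.10 and 22.6 CPM). None of the 3 was called against RSL3 without passage 6.

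Of 26 immediate early genes, 3 were called higher than untreated with Fer-1 + RSL3 (11.5%, against 2.88% of all genes) and 10 with RSL3 alone (against 2.36% of all genes). The median difference between the treatments was -1.13, and 0 of the 26 were called in the direct test. ATF3, a stress-induced repressor shared with the ATF4 list, lay at 31.5, 27.0 and 24.3 CPM untreated, 226, 177 and 291 CPM with Fer-1 + RSL3 and 582, 98.5 and 1260 CPM with RSL3. It was called against untreated (logFC 2.97 ± 0.79, FDR = 0.0179), and its RSL3 library of passage 6 was below the Fer-1 + RSL3 one. JUN, an AP-1 subunit, had a logFC of 2.55 ± 0.72 (FDR = 0.0231) and KLF6 of 1.2 ± 0.40 (FDR = 0.0467), and neither was called without passage 6. NR4A1, an orphan nuclear receptor, was measured at 6.96, 6.10 and 3.07 CPM untreated, 27.4, 10.3 and 4.26 CPM with Fer-1 + RSL3 and 316, 32.1 and 1390 CPM with RSL3. Fer-1 + RSL3 was below RSL3 in every passage, and the difference did not pass the FDR (-4.74, 95% CI -8.13 to -1.36, FDR = 0.25). NR4A2 and NR4A3 gave differences of -3.66 and -5.63 (FDR = 0.265 and 0.165).

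Of 17 kinase and G-protein feedback genes, 1 was called higher (5.88%, against 2.88% of all genes) and 2 lower (11.8%, against 0.763%). SPRY1, an inhibitor of receptor tyrosine kinase signalling, was measured at 18.8, 14 and 11 CPM untreated and at 7.03, 5.83 and 3.44 CPM treated (logFC -1.46 ± 0.26, FDR = 0.00197), close to its 6.56, 6.55 and 2.11 CPM in RSL3. RGS1, which shortens G-protein signals, had 109, 72.4 and 58.5 CPM untreated, 285, 198 and 203 CPM with Fer-1 + RSL3 and 928, 416 and 1930 CPM with RSL3. Its call against untreated (logFC 1.51 ± 0.48, FDR = 0.038) was lost when any of the 3 passages was left out. DUSP2, a nuclear MAP kinase phosphatase, sat at the fold limit (logFC -1.0 ± 0.26, FDR = 0.0164) and was not called without passage 6.

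Of 24 iron and heme genes, 1 was called higher and 1 lower (4.17% each), against 2.88% and 0.763% of all genes, so that the share called higher was near the background. TFRC, the transferrin receptor through which cells take up iron, fell from 389, 431 and 403 CPM untreated to 46.2, 167 and 72.7 CPM with Fer-1 + RSL3 in passages 4, 6 and 7. All treated libraries were below all untreated ones, and the mixed passage 6 library was the least reduced. The logFC was -2.24 ± 0.42 (FDR = 0.00286) and -2.79 ± 0.46 without passage 6 (FDR = 0.00597). In RSL3 alone TFRC lay at 156, 189 and 296 CPM (logFC -0.96, FDR = 0.131), and the difference between the treatments was -1.28 (95% CI -2.18 to -0.38, FDR = 0.244). The ferritin genes were not called. FTL, the ferritin light chain, had 2040, 3130 and 4810 CPM untreated and 4620, 4060 and 6620 CPM treated (logFC 0.66 ± 0.32, FDR = 0.152), and FTH1, the heavy chain, a logFC of 0.15 ± 0.20 (FDR = 0.617). The other called iron gene was HMOX1.

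Among 26 lipid peroxidation and ferroptosis genes, 4 were called higher (15.4%, against 2.88% of all genes) and 0 lower, and 3 of the 4 (CHAC1, SLC7A11 and SLC3A2) are also ATF4 targets. CBS, of the transsulfuration route to cysteine, lay at 0.26, 0.545 and 0.174 CPM untreated and 1.06, 0.936 and 0.328 CPM treated, with overlapping groups (FDR = 0.0398), and lost that call without passage 6. GPX4, the target of RSL3, was measured at 257, 288 and 331 CPM untreated and at 252, 201 and 242 CPM treated. Its logFC of -0.33 ± 0.11 (FDR = 0.0465) was under the fold limit, and without passage 6 it did not pass the FDR (-0.25, FDR = 0.28). AIFM2 (FSP1), which regenerates the antioxidant form of ubiquinone, passed the FDR with 29.9, 34.0 and 42.8 CPM untreated and 52.3, 60 and 68 CPM treated (logFC 0.76 ± 0.08, FDR = 0.000101). ACSL4, which loads polyunsaturated fatty acids into membrane lipids, had a logFC of -0.31 ± 0.09 (FDR = 0.0211), and of -0.35 without passage 6 (FDR = 0.079). Of 27 thioredoxin, peroxiredoxin and selenoprotein genes (7.41% called higher) only SRXN1 and TXNIP, the thioredoxin-binding protein (logFC 1.25 ± 0.18, FDR = 0.000617), were called.

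The genes called lower with the largest falls, among those also called without passage 6, were LOC105369583 (logFC -2.27), TFRC, C11orf96 (-2.11) and CCR2 (-1.99). CCR2, a chemokine receptor, was measured at 24.4, 23.8 and 19.6 CPM untreated and at 8.44, 5.04 and 3.93 CPM treated (FDR = 0.000201). C11orf96 lay at 25, 21.8 and 20.3 CPM untreated, 8.14, 3.75 and 4.15 CPM with Fer-1 + RSL3 and 21.9, 15.7 and 16 CPM with RSL3, with a difference between the treatments of -1.77 (FDR = 0.0554). ZNF703, a transcriptional corepressor, fell from 24.2, 19.3 and 15.4 CPM to 6.93, 5.57 and 5.57 CPM (logFC -1.69 ± 0.17, FDR = 8.12e-05), and HIC1, a repressor frequently silenced in tumours, had a logFC of -1.62 ± 0.30 (FDR = 0.00248). Transcription factors with smaller spread, named after their values were seen, were KLF13 (-1.2 ± 0.09, FDR = 1.66e-05), KLF16 (-1.14 ± 0.10), ZBTB7A (-1.11 ± 0.11) and the retinoic acid receptor RARA (-1.14 ± 0.13). KLF13 had 80.4, 84.5 and 88.0 CPM untreated, 33.7, 41.3 and 35.7 CPM with Fer-1 + RSL3 and 47.3, 57.7 and 53 CPM with RSL3.

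GC content moved with the fold changes. The median transcript GC content was 55.9% for genes called lower, 44.3% for genes called higher and 47.4% for all tested genes, of which 91.1% had a value. From the lowest to the highest GC decile the median logFC went from 0.18 to -0.26, from 0.15 to -0.24 without passage 6, and from 0.09 to -0.16 for RSL3 alone, while in MM1S Fer-1 + RSL3 it went from -0.01 to -0.04. Within passages 4, 6 and 7 the highest decile stood at -0.13, -0.27 and -0.28. With offsets for GC content and length in the paired fit, 381 genes were called higher and 79 lower, of which 353 and 68 were also called without the offsets. KLF16, ZBTB7A and RARA dropped below the fold limit there (logFC -0.82, -0.95 and -0.92), and KLF6, RGS1 and ASNS lost the FDR. The part of GC content in the other calls was not tested.

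**Figure D4:**
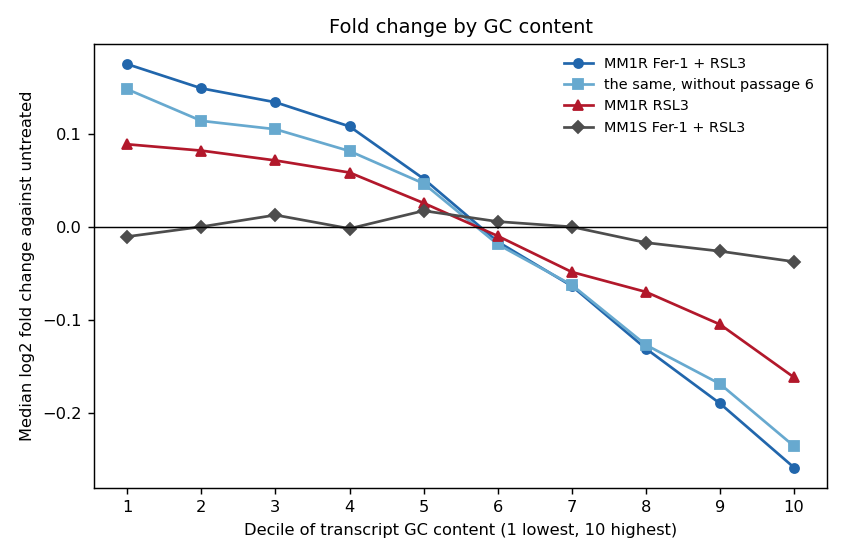
Median logFC against untreated (vertical axis) in each decile of the tested genes by transcript GC content (horizontal axis, decile 1 lowest), for 4 contrasts. The MM1R Fer-1 + RSL3 line runs from 0.18 to -0.26, the RSL3 line from 0.09 to -0.16, and the MM1S line stays between -0.04 and 0.02.

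Further genes were named by the size of their rise. PGF, placental growth factor, was at 0 counts in all untreated libraries and at 0.961, 4.79 and 0.874 CPM with Fer-1 + RSL3, at least 13.4-fold higher against a floor of 3 counts per library, with the highest value in the mixed library, and at least 5.58-fold higher without passage 6. RNF150, a transmembrane RING protein, rose from 0.104, 0.163 and 0 CPM to 4.55, 1.46 and 0.983 CPM (logFC 4.56 ± 0.59, FDR = 0.000362), and ADRA1A, an adrenergic receptor, had a logFC of 3.86 ± 0.52. These were transcripts of a few CPM at most. SPIN3 also met the rule, with 0 counts untreated and 0.253, 3.64 and 0.109 CPM treated, but its mean in untreated MM1S cells was 7.89 CPM. Genes with the smallest FDR, named after their values were seen, included the histone chaperone ASF1A (64.0, 77.3 and 95.7 CPM to 156, 182 and 216 CPM; FDR = 2.73e-06), the long noncoding RNA NEAT1 that scaffolds paraspeckles (574, 393 and 374 CPM to 3440, 2390 and 2850 CPM; FDR = 0.000101) and SESN3, a sestrin that restrains mTORC1 (24.2, 23.7 and 19.0 CPM to 66.1, 87.1 and 80.9 CPM). None of these 3 overlapped between the groups, which also held for 365 of the 412 genes called higher.

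Among BCL2 family, caspase and inhibitor genes, 2 of 24 (8.33%) were called higher, as were 1 of 22 p53 targets (4.55%) and 2 of 9 glucocorticoid-linked genes (22.2%), against 2.88% of all genes. PMAIP1 (NOXA), a BH3-only protein that counters MCL1, rose from 8.94, 7.24 and 7.30 CPM to 34.9, 31.2 and 33.9 CPM (logFC 2.09 ± 0.38, FDR = 0.00236), and HRK, another BH3-only gene, from 0.156, 0.163 and 0.290 CPM to 0.860, 0.780 and 0.820 CPM (logFC 2.01 ± 0.43, FDR = 0.00542). PMAIP1 and HRK were the BCL2 family calls, and PMAIP1 was also the p53 target called, in a list with a median logFC of -0.03. TSC22D3 (GILZ), a classical glucocorticoid target, was measured at 98.3, 106 and 86.0 CPM untreated and at 978, 625 and 779 CPM treated (logFC 2.97 ± 0.66, FDR = 0.00713), and at 1710, 565 and 2370 CPM with RSL3. TSC22D3 and TXNIP were the glucocorticoid-linked genes called.

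Proteasome genes (33 tested), cell cycle genes (30), and cholesterol synthesis and SREBP2 targets (24) held 0 calls. With 2.88% of all genes called higher and 0.763% lower, 0 calls in a list of this size are near the background. Of the cholesterol genes 8 were lower at FDR under 0.05 (median logFC -0.29), against 1535 of all 14281 genes. Of 13 NF-κB and inflammatory genes, CXCL10 was called lower and CD83 higher (7.69% each), and neither call was kept without passage 6. KDM7A, a histone lysine demethylase, was the only call among 20 such genes (5%), with a logFC of 1.11 ± 0.21 (FDR = 0.00261). It was not called without passage 6 (0.90, FDR = 0.0448). Of the 14 plasma cell markers, 13 were at 1 CPM or more and 0 were called, with summed levels of 6740 to 7120 CPM untreated and 5880 to 6250 CPM treated. SDC1 (CD138), which defines plasma cells, had a logFC of -0.66 (FDR = 0.000959). Markers of B cells, T and NK cells, monocytes and stroma had 1 to 3 members above the filter and 0 calls, with no list above 44.6 CPM in sum.

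**Figure D5:**
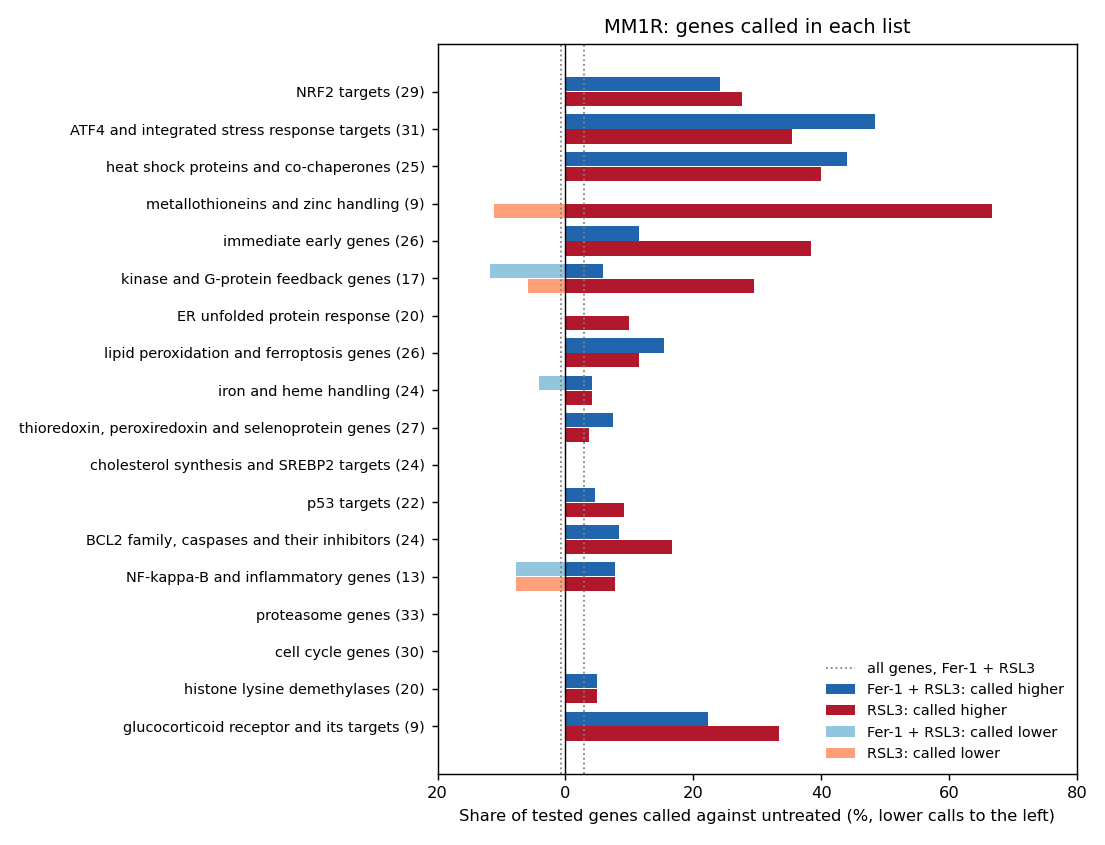
Share of tested genes called higher (right) or lower (left) than untreated in each gene list, for Fer-1 + RSL3 and for RSL3 alone in MM1R, with the number tested in brackets and dotted lines at the shares of all genes with Fer-1 + RSL3 (2.88% and 0.763%). ATF4 targets (48.4%) and heat shock genes (44%) are the longest bars with Fer-1 + RSL3, and metallothioneins have none there.

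In MM1S, Fer-1 + RSL3 against untreated called 262 genes higher (1.83%) and 121 lower (0.847%). Of the MM1R calls, 170 higher genes (41.3% of MM1R, 64.9% of MM1S) and 41 lower genes (37.6% and 33.9%) were called in the same direction in MM1S and 0 in opposite directions. The mixed passage 6 library is part of the MM1R side of that overlap. HMOX1 had a logFC of 6.68 in MM1S, HSPA6 of 10.08, CHAC1 of 3.67 and TFRC of -2.58. The test of the difference between the lines called 2 genes (1 in each direction, 0.007% each), and 1150 genes had an unadjusted p under 0.05. SERPINH1 was measured at 4.83, 3.54 and 4.29 CPM untreated and 4.04, 3.59 and 4.97 CPM treated in MM1R, against 1.19, 0.157 and 0.0502 CPM and 7.99, 1.48 and 0.996 CPM in MM1S (difference of logFC -3.08, FDR = 0.0484). The other was SPIN3, and 0 genes were called for this difference without passage 6 in edgeR, where 561 had an unadjusted p under 0.05.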

How the data were processed

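RNA-seq (2 × 50 bp, BGISEQ-500) was analysed for 18 libraries. The authors aligned reads to hg19 with STAR 2.7.3a after FastQC 0.11.5 and deposited raw counts per gene symbol. A normalized table was also deposited and was not used here. The counter, its annotation and its strand setting were not given in the sources used here, so reads shared by near-identical copies or antisense genes cannot be assigned.

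Counts were tested with edgeR 4.0.16 (R 4.3.3): filterByExpr with a minimum count of 10 (14281 of 43735 genes kept), TMM scaling, a quasi-likelihood fit of all 18 libraries with passage as a block and treatment within line (8 residual degrees of freedom, 6 without passage 6), and Benjamini-Hochberg FDR over all tested genes. The SE was the size of the logFC divided by the square root of F. CPM used TMM-scaled library sizes. The labels give the passage that pairs libraries. As a check of the pairing, deviations from group means correlated between Fer-1 + RSL3 and untreated with r = 0.25, 0.0338 and 0.362 in passages 4, 6 and 7. Replicates differed by more than counting noise (chi-square per degree of freedom 14.1 to 42.9). Genes were named as the 15 largest rises and 10 largest falls that did not overlap and were also called without passage 6, up to 4 calls by FDR per list, a set of genes named whatever their result, and up to 5 genes called only with or only without passage 6. Other genes were named after their values were seen. The comparison, its members and the gene lists were chosen with earlier results of these data known. DESeq2 1.42.0, other scalings, filters, thresholds, designs and left-out libraries were tried as alternatives. The fit was tested on simulated data.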

Additional observations from a re-analysis of the deposited data

Results flagged for a closer look

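Differences between the lines in the response to Fer-1 + RSL3 were looked for by the interaction test. Groups of 3 libraries were too small to look for outlying samples gene by gene. The mixed passage 6 library was found by the line markers. SERPINH1 had a logFC of -0.01 in MM1R and 3.07 in MM1S, a difference of -3.08 (FDR = 0.0484), and without passage 6 the difference was -3.09 with FDR = 0.694. Its untreated level was higher in MM1R (3.54 to 4.83 CPM) than in MM1S (0.0502 to 1.19 CPM). SPIN3 had a logFC of 7.60 in MM1R and -0.01 in MM1S, a difference of 7.61 (FDR = 0.0484). Its MM1R reads came mainly from the MM1R library labelled Fer-1 + RSL3, replicate 2 (3.64 CPM), in which MM1S markers stood at 46.5% of their MM1S level, and the difference without passage 6 was 4.84 (FDR = 0.967).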

How the results depend on the processing

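The numbers of genes higher and lower with Fer-1 + RSL3 than untreated in MM1R (412 and 109) were 250 and 59 with no replicate block, 248 and 60 with a stricter filter on low counts, 1638 and 1535 with no fold limit, and 652 and 176 at an FDR threshold of 0.5 with the fold limit, as printed in the study's methods, where its results use 0.05. Leaving out libraries gave 271 (without replicate 2) to 428 higher and 85 to 117 lower. Offsets for GC content and length, and leaving out replicate 2 together with another change, were added after seeing the data. Without replicate 2 and with offsets for GC content and length, 218 were higher, and without replicate 2 and no block, 69 and 25. With no replicate block RSL3 alone gave 151 and 20, MM1S 134 and 61, and both Fer-1 + RSL3 against RSL3 and the difference between the lines 0 and 0. Fer-1 + RSL3 against RSL3 gave 12 and 21 in DESeq2 and 0 and 4 without replicate 2, and the difference between the lines gave 0 and 0 without replicate 2. The causes were not tested.

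The sign of some logFC values that were not past the threshold, and of MGST1, depended on the setting. Over left-out libraries they ranged from -0.00719 to 2.445 for MT1E, -0.9897 to 4.458 for MT1F, -0.1316 to 0.4169 for SLC30A1, -0.3008 to 0.1483 for FOXA1, -0.3944 to 0.01414 for KDM6B, -0.8113 to 0.03119 for HES1, -2.324 to 9.662 for MGST1 and -0.1423 to 0.116 for SERPINH1. SERPINH1 was 0.001095 with upper-quartile scaling. With GC and length offsets SLC30A1 was -0.07209, KDM6B 0.04454 and SERPINH1 0.1198. Without replicate 2 and with offsets NR3C1 was -0.03437, MGST1 -2.403 and SERPINH1 0.09974, and without replicate 2 and no block MGST1 was -2.34. ASNS, ATF3, JUN, KLF6, RGS1, CBS, CD83, DUSP2 and KDM7A lost their calls in several of the left-out settings, TSC22D3 without replicate 1 or 3, and TXNIP and SLC7A1 without replicate 3. Without replicate 2 and no block, HSPA6, DNAJB1, HSPA8, BAG3, CHORDC1, PSAT1, ALDH1L2 and CCR2 also lost their calls. HMOX1, GCLM, SLC7A11, SLC3A2, DDIT3 and TFRC kept theirs there.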

Other observations

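Other groups, chosen after their values were seen, showed further patterns. Of 430 tested zinc finger genes named ZNF, 30 (6.98%) were called higher and 1 (0.233%) lower with Fer-1 + RSL3. The shares of all genes were 2.88% higher and 0.763% lower. The median logFC of the ZNF genes was 0.31, and 18 were called higher without passage 6. Of 73 ribosomal protein genes 0 were called, against 3.65% of all genes in either direction, and their median logFC was -0.20. Of 9 tested SLC7 amino acid transporter genes 3 were called higher, and 2 without passage 6. Antisense RNAs (5 higher and 3 lower of 296) and LINC RNAs (4 and 2 of 189) were called at 1.69% and 2.12% higher. They were called at 1.01% and 1.06% lower, against 0.763% of all genes.

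Genes called with passage 6 only included PRKCD, a protein kinase C (logFC -1.09, and -0.95 without passage 6), and KRBOX4 (1.01 and 0.89). TGFA, an EGFR ligand, was called only without passage 6 (logFC -1.29, against -0.93 with it). Its Fer-1 + RSL3 libraries stood at 12.7, 23 and 10.5 CPM, with the mixed library nearest to the untreated 31.6, 28.8 and 25.2 CPM.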
